A study of Rattus norvegicus with 16 samples.

Results

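The circadian clock genes of the rat heart were followed through 2 severities of streptozotocin diabetes. The set was Arntl (ENSRNOG00000014448.8), Clock (ENSRNOG00000002175.6), Per1 (ENSRNOG00000007387.7), Per2 (ENSRNOG00000020254.7), Per3 (ENSRNOG00000018413.7), Dbp (ENSRNOG00000021027.6) and Nr1d1 (ENSRNOG00000009329.7). They were taken by their Ensembl identifiers, 7 of the 23918 genes in the tables, and all 7 passed the filter on low counts. The deposited tables give identifiers alone, so the symbols come from the list of members and not from the data. Hearts came from adult male Wistar rats of 240 to 260 g in 3 groups: untreated controls (n = 4), rats given a single tail vein injection of streptozotocin at 55 mg/kg (D55, n = 6) and rats given 100 mg/kg (D100, n = 6). Streptozotocin is toxic to pancreatic beta cells, which make insulin. The injections were given under halothane anaesthesia, a glucose reading over 13 mmol/L was recorded 24 hours later, and the hearts were drained of blood after 4 days. The labels name no vehicle injection for the controls, which are listed with no agent. They also give no hour of tissue collection, so a difference between groups in the hour of collection cannot be told apart from the dose.

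The mammalian clock is a feedback loop of transcription that runs in nearly every cell, cardiomyocytes included. ARNTL (also called BMAL1) and CLOCK form the positive limb: as a pair they bind E-boxes and switch on the period genes, Nr1d1 and Dbp. The PER proteins, with cryptochromes, then block that pair, while NR1D1 (REV-ERB alpha) represses Arntl through ROR response elements, so that Arntl transcripts peak when those of its targets are low. DBP carries the rhythm to other genes through D-boxes, and in the heart the clock is known to time fuel use and electrical activity.

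E-boxes, D-boxes and ROR response elements were looked for, as short runs of letters, in RefSeq promoter windows. These windows run from 250 bases before to 50 bases after an annotated start on the GRCr8 assembly. Matches were found in 4 windows of 3 genes. For each of these genes 1 such window is shown, for Nr1d1 that at chr10:84229405-84229704. By symbol, or for Arntl by its synonym, 7 of 7 genes matched a total of 9 windows. Searched on both strands were CACGTG (the canonical E-box, in 6.42% of all 33469 windows), CACGTT (an E-box variant, 4.83%), TTATGTAA (a D-box, 0.893%) and GTAGGTCA (the core of an ROR response element, 0.598%). Capitals mark the matches. The Arntl window, chr1:176766078-176766377 on the + strand, held GTAGGTCA from 17 bases before the start. The Per2 window, chr9:99496944-99497243 on the - strand, held TTATGTAA from 192 bases and CACGTT from 62 bases before the start. A Nr1d1 window, chr10:84229405-84229704 on the - strand, held CACGTG from 191 bases before its start, and the other Nr1d1 window, chr10:84231763-84232062, held CACGTT on the opposite strand from 174 bases before its start. A match is a run of letters and was not tested for binding. No match was found in the windows of Clock, Per1, Per3 or Dbp, which says only that these letters are not in those 300 bases.
Arntl: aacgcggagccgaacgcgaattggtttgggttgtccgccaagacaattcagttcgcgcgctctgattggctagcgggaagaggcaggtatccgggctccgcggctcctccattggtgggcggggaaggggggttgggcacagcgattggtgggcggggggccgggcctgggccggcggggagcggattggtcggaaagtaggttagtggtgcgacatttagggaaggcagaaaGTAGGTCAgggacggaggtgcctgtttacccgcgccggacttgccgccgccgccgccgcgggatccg
Per2: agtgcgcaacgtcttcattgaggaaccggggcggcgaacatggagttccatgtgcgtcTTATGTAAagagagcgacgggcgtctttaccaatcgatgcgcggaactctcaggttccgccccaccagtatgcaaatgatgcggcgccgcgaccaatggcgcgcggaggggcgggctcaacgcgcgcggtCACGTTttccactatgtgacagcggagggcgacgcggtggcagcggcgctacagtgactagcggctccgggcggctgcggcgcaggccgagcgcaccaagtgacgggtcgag
Nr1d1: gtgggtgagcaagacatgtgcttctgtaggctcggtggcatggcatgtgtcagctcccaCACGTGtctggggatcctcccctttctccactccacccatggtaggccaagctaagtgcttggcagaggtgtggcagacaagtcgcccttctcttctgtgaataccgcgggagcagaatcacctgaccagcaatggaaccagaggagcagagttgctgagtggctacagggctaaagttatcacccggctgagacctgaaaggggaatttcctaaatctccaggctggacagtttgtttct

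Library totals ranged from 4.685 M to 48.4 M estimated counts, and the shallowest library was D100 F. The lowest count of any clock gene in any library was 25 (Per1 in D100 B), above the 3 counts taken as a floor. Levels are given as CPM (counts scaled to a common library size) with trimmed-mean (TMM) scaling, and are compared between libraries for 1 gene at a time, since transcript lengths were not used. Estimates of Nr1d1 were not whole, within 0.01 of a count, in 11 of 16 libraries and those of Clock in 3, so part of their reads was shared with other sequences, which makes their levels less sure; Nr1d1 also overlaps Thra on the opposite strand, and the strand setting of the counting is not given in the sources used here. D55 B and D55 E stood apart from the rest, with 30.1% and 30.4% of their counts in the 10 most abundant genes of the series (the top-gene share) against 42.8% to 69.0% elsewhere. Results that rest on them are given with and without them. In whole-heart RNA, fewer cells of a type and less RNA per cell cannot be told apart.

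Arntl, the partner of CLOCK in the positive limb, was lower in every diabetic heart than in any control. Control hearts held 41.4, 34.5, 36.7 and 34.7 CPM of Arntl, a mean of 36.8 ± 3.22 (SD, n = 4). In D55 the lowest, median and highest values of Arntl were 3.01, 8.81 and 17.9 CPM, with a mean of 8.80 ± 5.27 (SD, n = 6). In D100 they were 2.64, 11.6 and 31.4 CPM, with a mean of 15.7 ± 11.1 (SD, n = 6). The highest value of either dose, 31.4 CPM in D100 A, lay below the lowest control. Thus 6 of 6 D55 and 6 of 6 D100 hearts were under all controls, and this held with DESeq2 size factors and without scaling factors, where control Arntl spread wider (30.5 to 51.7 CPM, SD 9.34). In the test across all genes (edgeR's quasi-likelihood test, Benjamini-Hochberg adjusted over 14175 genes, with a threshold of 0.05), which gives every fold change and adjusted p of the group comparisons unless another tool is named, Arntl nevertheless did not pass: the log2 fold change was -2.07 in D55 (SE 0.52, unadjusted p = 0.0009996, adjusted p = 0.283) and -1.23 in D100 (SE 0.52, unadjusted p = 0.0298, adjusted p = 0.177). Arntl was 50th of 14175 genes by p in D55. The test takes 1 spread per gene for all 3 groups. The SD of log2 CPM of Arntl was 0.12 in controls, 0.92 in D55 and 1.27 in D100, which makes its p less sure in either comparison.

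Clock, the other partner of the pair, overlapped the controls at either dose. Controls held 60.9, 63.1, 91.2 and 57.3 CPM of Clock, with control 3 well above the others. D55 hearts ran from 27.1 through a median of 44.1 to 74.4 CPM, and D100 hearts from 43.9 through 87.9 to 125.0 CPM. Of these, 4 of 6 D55 hearts lay below all controls and 3 of 6 D100 hearts above them. Without scaling factors 5 of 6 D55 hearts lay below all controls and 1 above. Of the 6 D100 hearts, 1 then lay above all controls and 1 below. The log2 fold change of Clock was -0.52 in D55 (SE 0.29, adjusted p = 0.560) and 0.35 in D100 (SE 0.30, adjusted p = 0.476), neither of which passed.

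The period genes encode the repressors that close the loop. Per3 rose at either dose. Its control values were 4.06, 5.53, 7.22 and 5.53 CPM, a mean of 5.58 ± 1.29 (SD, n = 4). D55 hearts held 19.6, 28.2 and 39.8 CPM of Per3 (lowest, median, highest), and D100 hearts 8.97, 19.6 and 29.4 CPM. No diabetic heart of either dose reached down to the controls with TMM scaling. Without scaling factors D100 A and B, at 6.50 and 5.54 CPM of Per3, lay within the control range of 5.08 to 7.01 CPM. The rise was 5.135-fold in D55 (log2 fold change 2.36, SE 0.34, adjusted p = 0.02315), where Per3 had the smallest p of all 14175 genes. In D100 it was 3.29-fold (log2 fold change 1.72, SE 0.33, adjusted p = 0.00789).

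Per2, which like Per1 also answers hormonal and metabolic cues, stood at 6.06, 6.30, 5.56 and 5.12 CPM in controls, a mean of 5.76 ± 0.52 (SD, n = 4). D55 hearts ran from 10.1 through 17.4 to 31.8 CPM of Per2, and D100 hearts from 9.28 through 15.2 to 27.0 CPM. Again all 6 hearts of either dose were above every control, but without scaling factors this held for 3 of 6 D100 hearts. Per2 rose 2.77-fold in D100 (log2 fold change 1.47, SE 0.36, adjusted p = 0.0306). In D55 the fold was larger, 3.24 (log2 fold change 1.70, SE 0.36), but the adjusted p was 0.156 (unadjusted 0.00022). Per1, in contrast, overlapped the controls at either dose. Its control values were 6.91, 5.99, 2.80 and 2.73 CPM, those of D55 5.21, 9.85 and 50.5 CPM (lowest, median, highest) and those of D100 1.93, 5.77 and 18.2 CPM. Neither Per1 difference passed (log2 fold change 1.87, adjusted p = 0.554 in D55; 0.87, adjusted p = 0.463 in D100). The D55 value for Per1 was 1.13 without D55 E and 0.72 without D55 B and E.

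The E-box targets outside the period family stood above the controls in all D55 hearts and in some D100 hearts with TMM scaling. Dbp, an output factor of the PAR bZIP family, held 2.87, 3.81, 2.30 and 3.75 CPM in controls, a mean of 3.18 ± 0.73 (SD, n = 4). In D55 its lowest, median and highest values were 11.8, 25.0 and 73.0 CPM, all above the controls. In D100 they were 2.01, 7.69 and 24.3 CPM, where 4 hearts were above the controls and 2, D100 A and B, were below them. The log2 fold change of Dbp was 3.37 in D55 (10.3-fold, SE 0.68, unadjusted p = 0.0001357, adjusted p = 0.120), the largest of the 7 genes in that comparison, and 1.58 in D100 (SE 0.64, adjusted p = 0.160). Nr1d1, the nuclear receptor that represses Arntl, followed the same order of groups: 6.55, 12.6, 6.02 and 8.24 CPM in controls, then 15.6, 34.3 and 94.2 CPM in D55 and 7.65, 13.0 and 23.9 CPM in D100. The D55 values of Nr1d1 cleared the controls and the D100 values did not; without scaling factors D55 D, at 14.9 CPM, was also under control 2, at 16.04 CPM. Its log2 fold change was 2.55 in D55 (5.85-fold, SE 0.53, adjusted p = 0.146) and 0.75 in D100 (SE 0.50, adjusted p = 0.355). D55 B and E held the highest Dbp and Nr1d1 values of the series. Without them the D55 means were still 19.8 CPM ± 6.58 (SD, n = 4) for Dbp and 26.7 ± 12.9 for Nr1d1, and the lowest D55 values, 11.8 and 15.6 CPM, were not theirs.

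**Figure D1:**
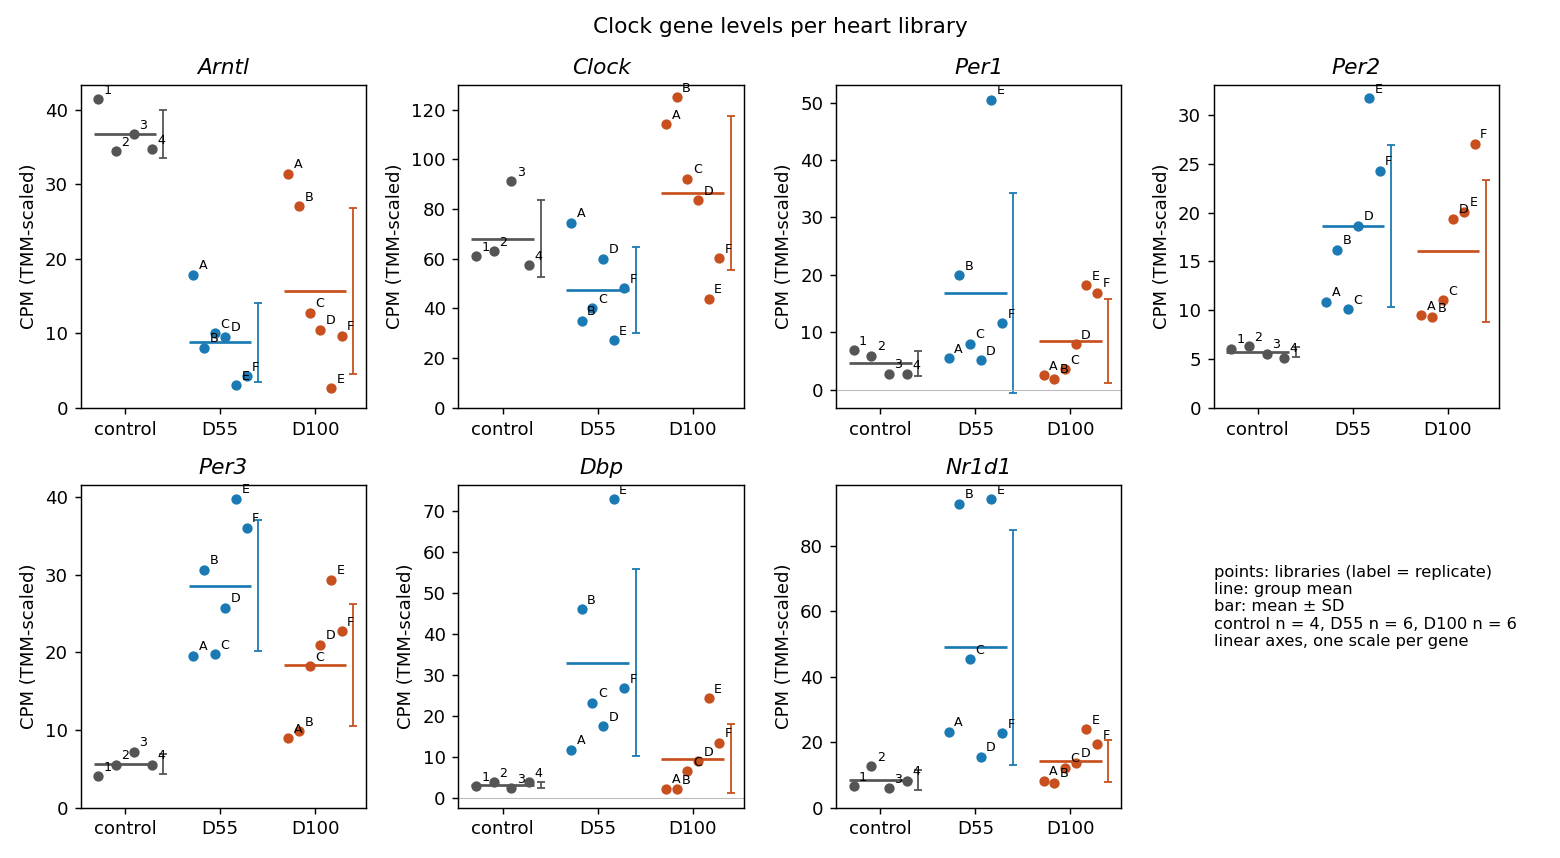
Level of each clock gene in every heart library (vertical axes: TMM-scaled CPM, linear, a separate scale for each gene; points: libraries with their replicate label; line: group mean; bar: mean ± SD; control n = 4, D55 n = 6, D100 n = 6). Arntl lies between 34.5 and 41.4 CPM in controls and at or under 31.4 CPM in all diabetic hearts, while Per2 and Per3 of all diabetic hearts lie above the controls.

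Over the set, D55 against control had 1 of 7 genes past the threshold, Per3, in a comparison in which 0.0635% of all genes were called. By direction, 0.0564% of all genes were called higher and 0.00705% lower. Values did not overlap for 5 of 7 (Arntl lower; Per2, Per3, Dbp and Nr1d1 higher), where 2.55% of all genes did not overlap (0.868% higher and 1.69% lower). Without scaling factors it was 4 of 7, without Nr1d1, and 1.52% of all genes. All but Clock, 6 of 7, had an unadjusted p of at most 0.05, as did 8.97% of all genes. The median log2 fold change was 1.87 over the 7 genes and 0.03 over all genes. In none of the 26 alternative settings did the D55 direction of any of the 7 genes turn. The Per3 call was lost without control 1, 2, 3 or 4 (adjusted p = 0.146, 0.144, 0.0829 and 0.106), without D55 F (0.0625) and without scaling factors (0.0781). Without D55 B and E it held (log2 fold change 2.18, adjusted p = 0.0235). DESeq2 and limma-voom each called 5 of 7 in this comparison, the 5 without overlap, where they called 0.621% and 3.68% of all genes.

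D100 against control had 2 of 7 past the threshold, Per2 and Per3, both higher, where 4.38% of all genes were called. Values did not overlap for 3 of 7 (Arntl lower; Per2 and Per3 higher), against 7.57% of all genes (3.15% higher and 4.42% lower). Without scaling factors it was 1 of 7, Arntl, and 8.14% of all genes. Of all genes 1.92% were called higher and 2.46% lower. An unadjusted p of at most 0.05 was reached by 4 of 7 (Arntl, Per2, Per3 and Dbp) and by 22.8% of all genes. The median log2 fold change was 0.87 over the 7 genes and -0.03 over all genes. The Per2 call was lost without control 1, 2, 3 or 4 (adjusted p = 0.101, 0.0905, 0.0521 and 0.106), without D100 D (0.0656) and without scaling factors (0.138), and the Per3 call without scaling factors alone (0.0573). With the top-gene share entered as a covariate, 6 of 7 passed in D100, where 9.93% of all genes did: Arntl was lower (log2 fold change -1.90, adjusted p = 0.0378), while Per1 (1.97, adjusted p = 0.00807), Per2 (1.73), Per3 (1.89), Dbp (2.34) and Nr1d1 (1.69) were higher. The share itself differed with the group: 43.3% to 59.4% in controls, 30.1% to 54.7% in D55 and 53.4% to 69.0% in D100. Group and share therefore cannot be fully told apart in any fit with this covariate. The comparisons of D55 and D100 with control share the same 4 control hearts.

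Between the doses, Clock was called higher and Dbp and Nr1d1 lower in D100 relative to D55. These 3 of 7 genes are near the share of all genes called in this comparison, 35.6%. The count therefore does not set the clock genes apart from the other genes. On the log2 scale Clock differed by 0.87 (SE 0.27, edgeR adjusted p = 0.0262), Dbp by -1.79 (SE 0.55, adjusted p = 0.0254) and Nr1d1 by -1.79 (SE 0.44, adjusted p = 0.0158). Values overlapped for all 7 genes, and 4.2% of all genes did not overlap (1.88% higher and 2.32% lower). Of all genes 13.7% were called higher and 21.8% lower in D100. An unadjusted p of at most 0.05 was reached by 4 of 7 (Clock, Per3, Dbp and Nr1d1) and by 51.4% of all genes. Arntl was 0.84 higher (SE 0.48, adjusted p = 0.160) and the period genes were -1.003 (Per1), -0.23 (Per2) and -0.64 (Per3) on the log2 scale, none past the threshold. Without D55 B and E no clock gene passed (Clock 0.64, adjusted p = 0.188; Dbp -1.05, adjusted p = 0.239; Nr1d1 -0.92, adjusted p = 0.162), when 0.888% of all genes were called, and none passed with the top-gene share as a covariate. Leaving out D55 B, D55 E, D100 A, D100 B or D100 C alone left Nr1d1 as the 1 call. Dbp was also lost without D100 D (adjusted p = 0.0506), and Clock without scaling factors, where Per3 passed instead. Leaving out D100 E gave 5 calls, where 46.3% of all genes were called, with Arntl (1.07, adjusted p = 0.0420) and Per3 (-0.84, adjusted p = 0.0244) added.

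**Figure D2:**
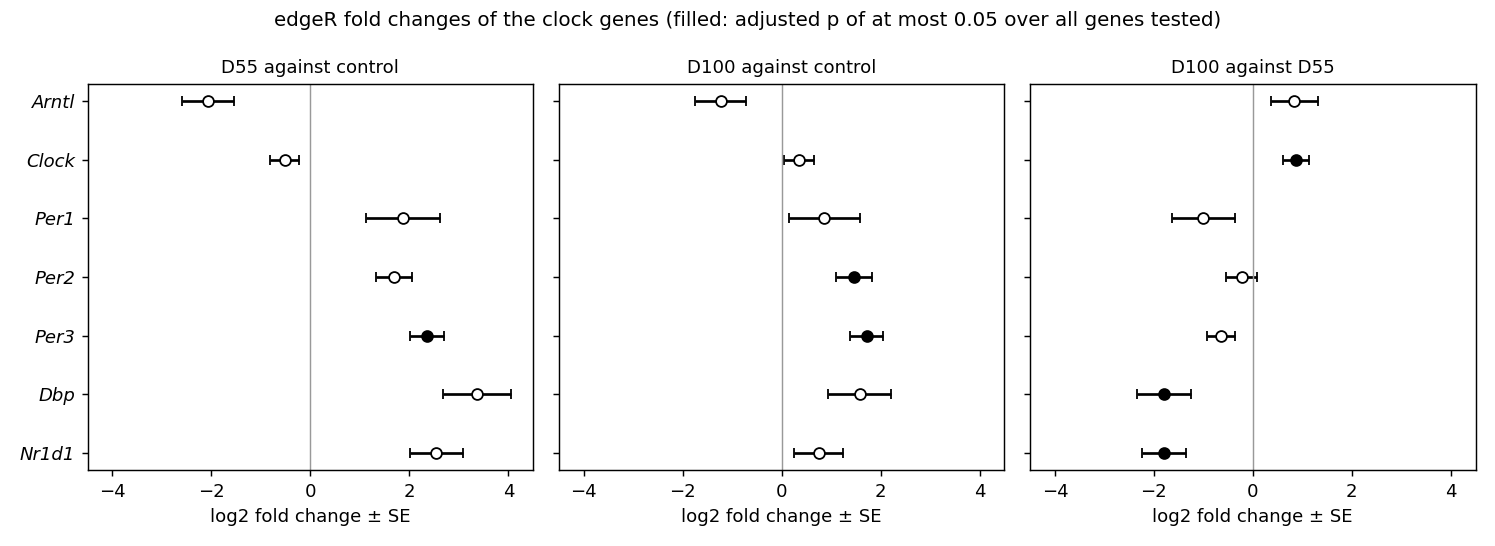
Fitted log2 fold change with its standard error, worked out from the test's F statistic, for the 7 clock genes in each comparison (horizontal axes: log2 fold change; filled circles: adjusted p of at most 0.05 over 14175 genes). Arntl is left of 0 and the period genes, Dbp and Nr1d1 right of 0 against control at either dose, with Per3 passing at both doses and Per2 in D100.

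Whether the limbs moved oppositely was examined heart by heart. The 7 genes form 21 pairs, 10 of which cross the limbs (Arntl or Clock with a period gene, Dbp or Nr1d1). Because control and diabetic hearts form separate clusters for Arntl, the pairs were first read with each group's mean removed. In these deviations of log2 CPM all 10 cross-limb pairs had a negative Pearson's r, from -0.94 to -0.59, and all 10 passed a permutation test adjusted over the 21 pairs. All 11 pairs within a limb were positive, from 0.45 to 0.91, and 10 of them passed, the exception being Per2 with Nr1d1. Single hearts departed from this: control 1 had the most Arntl of its group with Clock at 60.9 CPM, under the control mean of 68.1 CPM. The permutation test shuffled the deviations over all 16 hearts as if every group had the same spread. However, the SD of Arntl was 0.12 in controls, 0.92 in D55 and 1.27 in D100. The p of these deviations, here and in the next paragraph, can therefore be too small. In the planned setting, with group means left in, 9 of the 10 cross-limb pairs passed.

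Arntl and Dbp had r = -0.90 and Spearman's rho = -0.87 with group means removed (permutation p = 2e-05 for either, adjusted p = 8.4e-05 and 0.000105), and r = -0.83 without the 2 hearts farthest from the median of Arntl. Arntl and Per3 had r = -0.89 and rho = -0.92 (permutation p = 1e-05, the smallest that 100000 permutations can give, adjusted p = 7e-05 and 0.000105) and r = -0.89 without the 2 farthest. Clock and Dbp had r = -0.94 and rho = -0.89 (permutation p = 1e-05 and 2e-05, adjusted 7e-05 and 0.000105; r = -0.91 without the 2 farthest). The weakest cross-limb pair was Arntl with Nr1d1, at r = -0.59 and rho = -0.57 (permutation p = 0.0152 and 0.0251, adjusted 0.0168 and 0.0279), which fell to -0.37 without the 2 farthest hearts and so rests on them.

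Without scaling factors Arntl and Dbp had r = -0.63 over all 16 hearts, and 8 of 10 cross-limb pairs passed. Over all 16 hearts with TMM scaling, group means left in, 10 of 10 cross-limb pairs were negative and 9 passed by Pearson's r, with r from -0.92 (Arntl with Per3) to -0.47 (Clock with Per2, permutation p = 0.0681, the pair that did not pass). Leaving out D55 B and E gave 8 of 10, as Clock with Per3 was also lost (r = -0.33, permutation p = 0.244, adjusted 0.257). The share of pairs of other genes that would pass was not computed, so these counts of pairs are not set against all genes.

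Cross-limb r was negative at either dose, but few pairs passed in D55. By Spearman's rho 10 of 10 cross-limb pairs passed in D100 and 0 of 10 in D55. Among the 6 D100 hearts r was negative for 10 of 10 cross-limb pairs, from -0.98 to -0.72, and 9 passed an exact permutation test adjusted over the 21 pairs. D100 A and B held the most Arntl (31.4 and 27.1 CPM) and the least Dbp (2.24 and 2.01 CPM), while D100 E held the least Arntl (2.64 CPM) and the most Dbp (24.3 CPM), Per3 (29.4 CPM) and Nr1d1 (23.9 CPM). In D100 the rank order of Arntl was the exact inverse of that of Per3 (Spearman's rho = -1.0, exact permutation p = 0.00278, adjusted 0.00833), and so was the order in D55 (rho = -1.0, exact permutation p = 0.00278, adjusted 0.0583). Among the 6 D55 hearts 10 of 10 cross-limb pairs were also negative, from -0.96 to -0.43. Of these 2 passed the adjusted exact test, Arntl with Per3 (r = -0.93, adjusted p = 0.0486) and Clock with Dbp (r = -0.96, adjusted p = 0.0486). With 2 of the 6 hearts left out, Clock with Per2 and Clock with Per3 were no longer negative in D55 (r = 0.48 and 0.06). The 4 controls were too few for a correlation within the group.

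**Figure D3:**
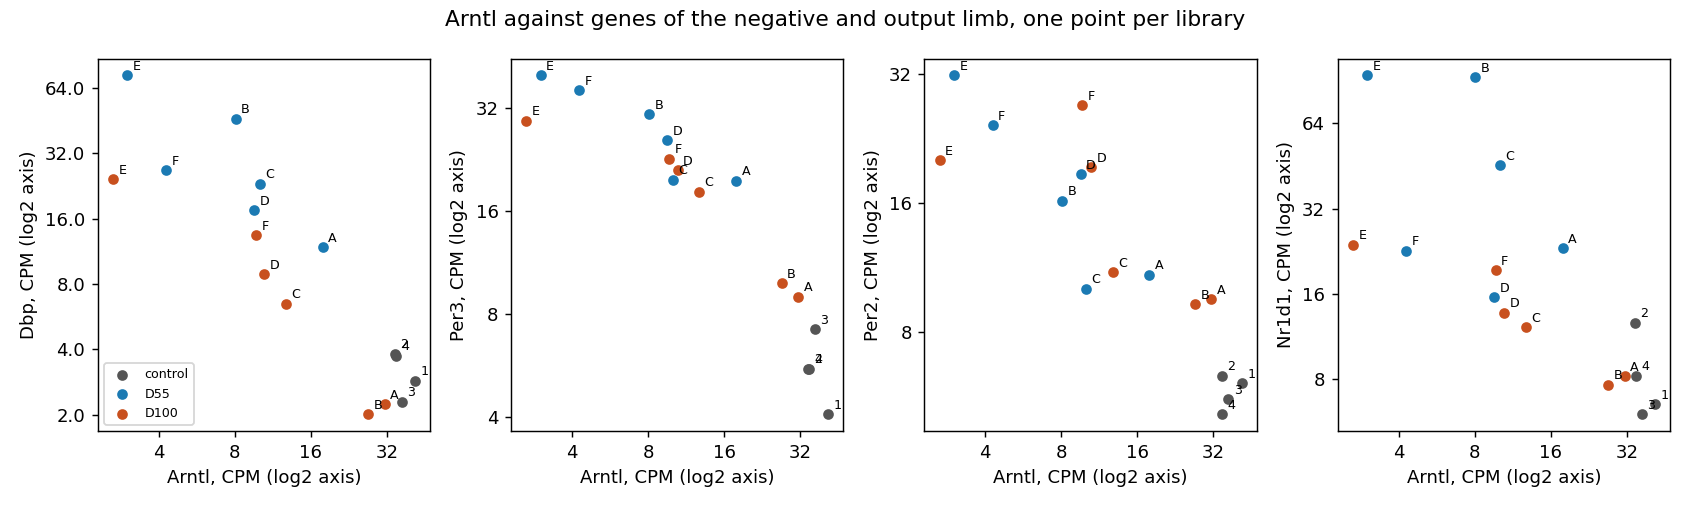
Level of Dbp, Per3, Per2 and Nr1d1 against that of Arntl, 1 point per heart library labelled with its replicate (axes: TMM-scaled CPM on log2 axes; grey: control, blue: D55, orange: D100). In each panel the controls sit at the high Arntl end, D100 A and B lie nearest to them, and D55 E and D100 E have the least Arntl, 3.01 and 2.64 CPM, with 73.0 and 24.3 CPM of Dbp.

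**Figure D4:**
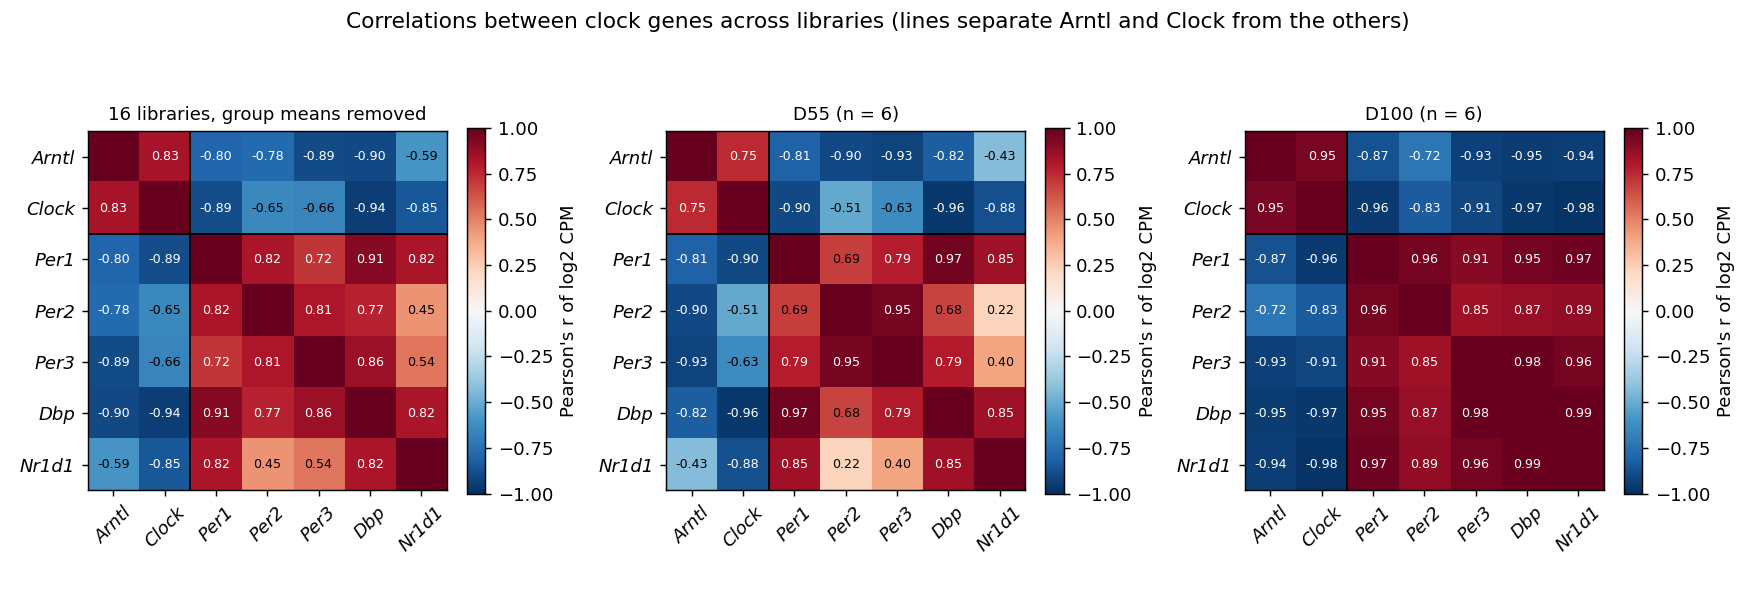
Pearson's r of log2 CPM for each pair of clock genes (colour and number; black lines separate Arntl and Clock from the others) over 16 libraries with group means removed, within D55 and within D100. All cross-limb cells are negative, from -0.94 to -0.59 in the first panel, and all cells within a limb are positive.

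The top-gene share moved with several of these genes. Over 16 hearts it had r = 0.87 with Clock (rho = 0.79, permutation p = 2e-05 and 0.00048, adjusted over 7 relations 0.00014 and 0.00336), and r = 0.78 without the 2 hearts farthest from its median, D55 B and E. With Nr1d1 r was -0.75 (rho = -0.60, permutation p = 0.00102 and 0.016, adjusted 0.00357 and 0.0355), with Per1 -0.72 (rho = -0.65, permutation p = 0.00167 and 0.0084, adjusted 0.0039 and 0.0294) and with Dbp -0.64 (rho = -0.58, permutation p = 0.00819 and 0.0203, adjusted 0.0143 and 0.0355). Without D55 B and E these were -0.41, -0.48 and -0.34, so they rest on those hearts. The part of this share in the dose comparison was not tested beyond the fits without those hearts and with the covariate. For Arntl (r = 0.32, permutation p = 0.233), Per2 (-0.20, p = 0.462) and Per3 (-0.24, p = 0.381) the permutation test did not pass. After a straight-line fit on this share was removed from each gene, 10 of 10 cross-limb pairs were negative and passed, from -0.95 (Arntl with Dbp) to -0.53. Group means were left in for this fit, so these r include the differences between groups. The share and the group means were not removed together.

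A ratio of 2 genes within a library barely depends on how libraries are scaled, and it is given as a description. The log2 ratio of Arntl to Dbp was 3.82, 3.16, 3.96 and 3.19 in the controls. In D55 it lay between -4.57 (D55 E) and 0.60 (D55 A), all below the controls, and averaged -1.86 ± 1.78 (SD, n = 6). In D100 it ran from -3.18 (D100 E) to 3.77 (D100 A), with D100 A and B inside the control range and the other 4 hearts below it. For Arntl to Per2 and Arntl to Per3, all 6 hearts of either dose were below the controls. This follows from the TMM-scaled levels, where Arntl lay below all controls and Per2 and Per3 above them. The same holds in D55 for the ratios to Dbp and Nr1d1, so these are not separate findings. For Arntl to Per1 and Arntl to Nr1d1, all 6 D55 hearts were below the controls, but D100 A and B were not. Arntl to Per1 was 3.609 and 3.764 in D100 A and B, against 2.513 to 3.68 in controls. Arntl to Nr1d1 was 1.925 and 1.813 in these 2 hearts, against 1.442 to 2.648 in controls. The log2 ratio of Arntl to Per3 was 2.34 to 3.33 in controls, -3.70 to -0.13 in D55 and -3.45 to 1.80 in D100, and D100 A and B were again the nearest to the controls. The log2 ratio of Arntl to Clock, within the positive limb, was -1.31 to -0.56 in controls, -3.48 to -1.99 in D55 and -4.03 to -1.86 in D100, also without overlap.

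**Figure D5:**
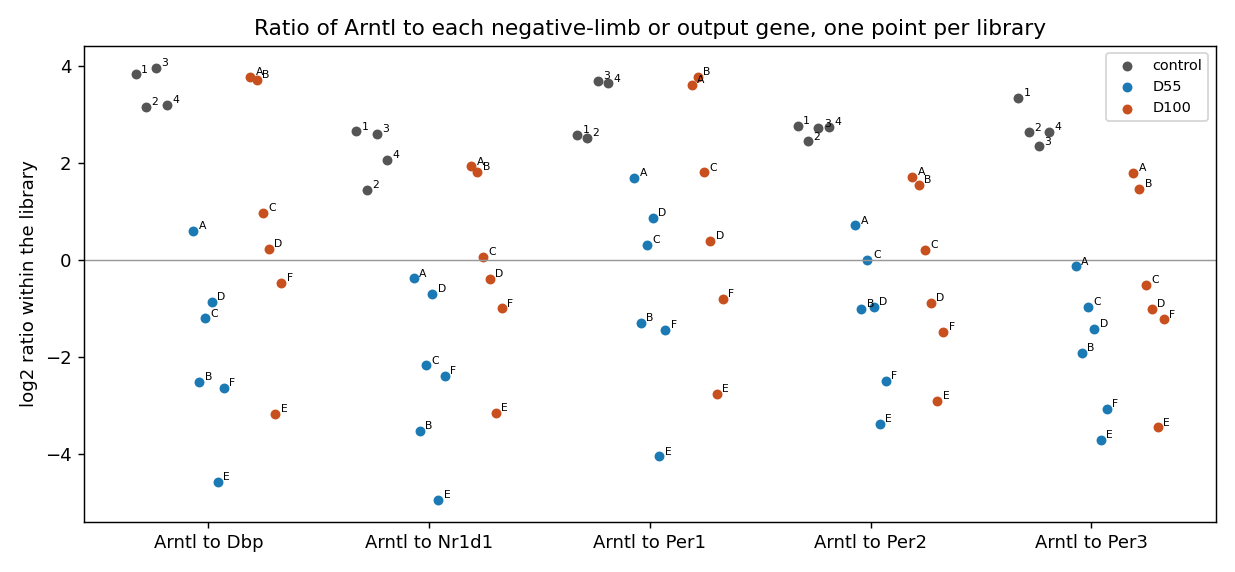
Log2 ratio of Arntl to each negative-limb or output gene within a library (vertical axis: log2 ratio with a prior count of 2; points: libraries with their replicate label; grey: control, blue: D55, orange: D100). Control ratios to Dbp lie between 3.16 and 3.96, D55 ratios between -4.57 and 0.60, and D100 ratios are spread from -3.18 to 3.77.

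The SD of log2 CPM was larger in D55 and in D100 than in the controls for all 7 genes, as was the median SD of all genes. Without D55 B and E this turned for Per1, whose D55 SD (0.54) was then below that of the controls (0.70). The SD of Arntl was 0.12 in controls, 0.92 in D55 and 1.27 in D100, while the median SD over all 14175 genes was 0.31, 0.50 and 0.49. The SD of Dbp was 0.34, 0.95 and 1.41 in the same order, and that of Per1 0.70, 1.25 and 1.38. Among all tested genes the SD of Arntl stood at the 9.27th percentile in controls and at the 89.7th in D100. Not all genes moved up: Per1 stood at the 91.6th, 93.1st and 91.8th percentile in controls, D55 and D100, Per3 went from the 54.7th in controls to the 40.9th in D55, and Nr1d1 from the 76.3rd to the 65.3rd in D100. Per2 was also even among the controls (SD 0.13, 10.7th percentile) and less so in D55 (0.64) and D100 (0.65). Without D55 B and E the D55 SD was 0.84 for Arntl and 0.52 for Dbp, with a median of 0.31 over all genes. Differences in spread were not tested.

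The clock genes were placed among all genes by likeness to Dbp and to Arntl. Of 14174 other genes ranked by Pearson's r with Dbp over the 16 hearts, Nr1d1 was the highest (r = 0.93), Per3 17th (0.88), Per1 23rd (0.87) and Per2 157th (0.80), and Arntl was the second from the lowest end (-0.90) and Clock 21st (-0.85). Ranked by r with Arntl, Per3 was 4th from the lowest end (-0.92), Dbp 7th (-0.90), Per2 9th (-0.89), Per1 28th (-0.80) and Nr1d1 53rd (-0.75), while Clock was 165th from the highest (0.66). The median r of all genes was -0.01 with Arntl and 0.00 with Dbp. Outside the 7 genes, among 8647 with a mean of at least 5 CPM, ENSRNOG00000005447.5 was the most like Arntl (r = 0.91) and ENSRNOG00000019383.7 the most opposed (r = -0.96). ENSRNOG00000007478.4 was the most like Dbp (r = 0.93) and ENSRNOG00000009550.7 the most opposed (r = -0.90). These r describe 16 hearts that share the differences between groups, and no test is attached to them.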

How the data were processed

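The authors deposited 1 table of estimated counts for each heart, made with kallisto 0.43.1 on rat build Rnor 6.0, per the submitters' processing notes. The labels' protocols give TRIzol RNA, a stranded polyA library kit (400 ng of RNA) and an Illumina NextSeq. Annotation release, strand setting and read filters are not named in those notes or labels. Each library is labelled as a rat of its own; the labels name no batch.

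Estimated counts were rounded. Genes were kept by filterByExpr (14175 of 23918) and scaled by TMM. The 3 groups entered a single quasi-likelihood model of all 16 libraries in edgeR 4.0.16 (R 4.3.3), with Benjamini-Hochberg adjustment over all genes tested within a comparison and a threshold of 0.05. The SE of an edgeR log2 fold change was its absolute value divided by the square root of the test's F statistic. The script was tested on simulated data. Log2 CPM used a prior count of 2. Pairs of genes were compared by two-sided permutation tests with 100000 permutations, exact within groups of 6. Alternatives were DESeq2 1.42.0 size factors and test, limma 3.58.1 voom with quality weights, other filters and scalings, left-out libraries, a covariate, a replicate block and, for pairs, a prior count of 0.5.

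The members and lists were chosen with earlier results of these data known. All 7 clock genes are named; of other genes, the highest and lowest r with Arntl and Dbp are given by identifier, because 0 of 47357 rows of the reference gene table hold an identifier of the files. For the same reason the fixed lists of further clock genes and of heart cell markers, and a check of the tissue label, were not used here.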

Additional observations from a re-analysis of the deposited data

Results flagged for a closer look

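In 21 sets of values (7 genes in 3 groups), the highest or lowest heart was compared with its nearest neighbour, and 2 stood out by Dixon's test at the 95% level; chance gives about 1 in 20 sets. Clock in control 3, at 91.2 CPM, lay far above the next control at 63.1 CPM, with a gap of 0.8295 of the range, barely past the limit of the test. Without scaling factors its 75.7 CPM lay within the other controls (58.6 to 79.9 CPM). Control 3 also had the highest top-gene share (percent of its counts in the 10 most abundant genes) among controls, 59.4%, and the part of that share in the value was not tested. Per1 in D55 E, at 50.5 CPM, lay above the next D55 heart, D55 B, at 19.97 CPM, with a gap of 0.6742 of the range; D55 E is 1 of the 2 hearts with the lowest share, 30.4%.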

How the results depend on the processing

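All 7 clock genes kept their direction in D55 against control in 26 alternatives. The number called there was 0 without scaling factors, 5 by DESeq2, 5 by limma-voom, 4 with the top-gene share as a covariate (0.374% of all genes called), and 0 to 1 with 1 library left out. In D100 against control it was 1 without scaling factors (8.27% of all genes called), 4 by limma-voom (67.7%), 6 with the covariate (9.93%), and 1 to 2 with 1 library left out. The call without scaling factors was Arntl, lower (log2 fold change -1.83, edgeR adjusted p = 0.0288), and neither Per2 nor Per3. Those of limma-voom were Arntl, lower, and Clock, Per2 and Per3, higher. In D100 against D55 it was 0 without D55 B and E, 0 without these and D100 F, 0 with the covariate, and 1 to 5 with 1 library left out. Over all genes, calls ranged from 180 to 9594, 0 to 522 and 0 to 7068 in the 3 comparisons.

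Direction turned for Clock in D100 against control without scaling factors (log2 fold change -0.16) and with the covariate (-0.23), and for Per1 by limma-voom (-0.45). In D100 against D55 it turned with the covariate for Arntl (-0.049), Per1 (1.04), Per2 (0.20) and Nr1d1 (0.013), and for Per1 without D55 B and E (0.14). Leaving out scaling factors moved the median log2 fold change of all genes to -0.48 (D100 against control), 0.21 (D55 against control) and -0.66 (D100 against D55), and the control means to 40.3 CPM for Arntl and 6.35 CPM for Per2. Of 10 cross-limb pairs 2 passed within D55 alone, and 8 to 10 with 1 library left out. The causes were not tested.

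D55 and D100 share the letters A to F, which the labels tie to no common source. Over all genes same-letter hearts did not all deviate together (correlations from -0.50 to 0.63), and the own letter was best for 1 of 6 D55 and 2 of 6 D100 hearts. The clock genes were examined by letter after their values were seen. Between the 6 D55 and 6 D100 hearts in letter order, Arntl had r = 0.84 and rho = 0.83 (exact permutation p = 0.0389 and 0.0583, adjusted over 7 genes 0.272 and 0.204), Per2 r = 0.79 and Per3 rho = 0.83. None of the 7 passed after adjustment, and Arntl had r = 0.45 without the 2 hearts farthest from its median. With the letter as a replicate block edgeR called 0 of 7 clock genes and 0 of all genes in D100 against D55, while 5 of 7 and 44.5% of all genes had an unadjusted p of at most 0.05. Blocked log2 fold changes were near those without the block for Clock (0.85, adjusted p = 0.053), Dbp (-1.96, adjusted p = 0.053) and Nr1d1 (-1.55, adjusted p = 0.0537), and relative to the same 2 groups fitted without it the SE went from 0.53 to 0.27 for Arntl and from 0.34 to 0.19 for Per2. Controls carry numbers and cannot be blocked. Depth limits D100 F most, where 3 counts equal 0.64 CPM.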
